A study of Mus musculus with 6 samples.

Results

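The cyclins that act in the cell cycle were described here in embryonic mouse hearts that lack Gas2l3. They were taken as the rows of the deposited expression table named Ccnd1, Ccnd2, Ccnd3, Ccne1, Ccne2, Ccna1, Ccna2, Ccnb1, Ccnb2 and Ccnf, which gave 10 of the 24421 genes in the table. Ccnd2 had a higher mean level in Gas2l3 -/- hearts, at 131 ± 17.9 FPKM against 62.0 ± 19.3 FPKM in wildtype hearts (SD, n = 3 each). Ccnb2 had a lower mean, at 32.5 ± 1.59 FPKM in Gas2l3 -/- hearts and 54.1 ± 3.47 FPKM in wildtype hearts, and Ccnf, an F-box protein, had a fitted fold of 0.664 in Gas2l3 -/- over wildtype hearts. FPKM are fragments scaled to transcript length, which allows levels of different genes to be set side by side, and here to size factors between libraries rather than to library totals. No cyclin passed the adjusted threshold of 0.05.

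Cyclins are the regulatory subunits of cyclin-dependent kinases, and most are made and destroyed at set points of the cell cycle. D type cyclins bind Cdk4 and Cdk6 in G1 and link growth signals to the retinoblastoma protein, E type cyclins bind Cdk2 at entry into S phase, Ccna2 acts through S phase and G2, and B type cyclins bind Cdk1 and drive mitosis. Around birth mouse cardiomyocytes withdraw from the cycle and many become binucleate, so cyclin transcripts in the late fetal heart come from a mixture of dividing and withdrawing cells.

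The groups were hearts of Gas2l3 -/- embryos and hearts of wildtype embryos, 3 libraries each, all of the C57/Bl6 strain at E18.5, shortly before birth. Poly(A) RNA of whole hearts was sequenced, and the question of the study was what loss of Gas2l3, a cytoskeletal linker protein of the midbody, does to cell division in the heart. The labels name no Cre or transgene and do not say which exons are missing or whether each library is 1 embryo, so p-values measure only the spread between these samples. In bulk hearts, fewer cells of a type and less RNA per cell cannot be told apart.

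Recovered read totals were 5514800 to 6483168 in Gas2l3 -/- libraries and 3414257 to 7732674 in wildtype libraries. Gas2l3 itself had 4.03, 2.99 and 3.06 FPKM in Gas2l3 -/- libraries, against 10.3, 4.12 and 2.48 FPKM in wildtype libraries. Its groups overlapped, since wildtype replicate 3 was below every Gas2l3 -/- library, so the deposited level of this transcript did not separate the genotypes. After removal of each library's trends on gene GC content and length, the Gas2l3 -/- libraries were below all wildtype libraries, at a log2 fold change of -0.66 (SE 0.23; limma adjusted p = 0.579). Gas2l3 -/- and wildtype stand for the libraries so labelled. Wildtype replicate 3 stood apart from the rest: its mean correlation with the other libraries was 0.899, against 0.935 to 0.957 for the others. Its deviations from the mean over libraries also correlated with the GC content of genes (r = 0.70 across 11709 genes, which are not independent replicates), where the other 5 libraries ranged from -0.48 to -0.07. Other libraries had trends on gene length (log scale). There r was 0.34 and 0.35 in Gas2l3 -/- and wildtype replicate 1, and -0.42 and -0.31 in Gas2l3 -/- and wildtype replicate 2. Cyclin results that rest on wildtype replicate 3 are given with and without it. For some other genes its own level is given. Of the tissue markers, the 7 cardiomyocyte genes summed to 18709 to 19475 FPKM in Gas2l3 -/- libraries and 20369 to 26341 FPKM in wildtype libraries, and Myod1, Pax7, Nkx2-1 and Cd3e, which define skeletal muscle, lung and T cells, were at 0.

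**Figure D1:**
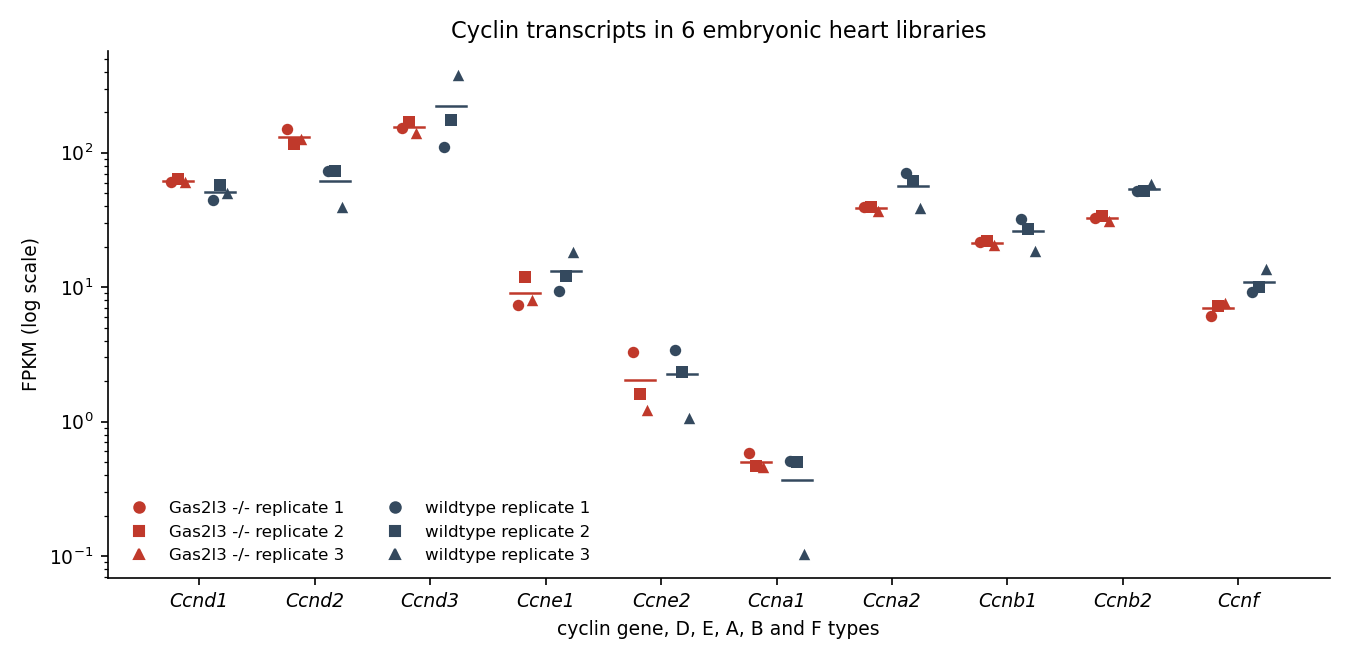
FPKM of each cyclin on a log axis in the 3 Gas2l3 -/- libraries (red, left of each pair) and the 3 wildtype libraries (dark blue), with marker shape for the replicate number and a line at the group mean. Ccnd2 sits higher and Ccnb2 and Ccnf sit lower in all 3 Gas2l3 -/- libraries, and wildtype replicate 3 (triangle) is the highest point for Ccnd3, the lowest for Ccnb1 and the lowest wildtype point for Ccna2.

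A minimum of 1 FPKM in 3 or more libraries left 9 of the 10 cyclins among 12121 genes, and limma compared the groups on log2(FPKM + 0.5). None of the 9 was called in either direction, and of all genes limma called 0.0% higher and 0.0% lower. At an unadjusted limma p under 0.05, Ccnd2 was higher and Ccnb2 and Ccnf were lower, beside 1.9% of all genes higher and 1.35% lower (394 genes). limma's voom on the recovered reads also called 0 genes, and the authors' deposited table called 0 cyclins among 7 genes higher (0.0572%) and 2 genes lower (0.0163%) of 12243. The median log2 fold change of the 9 cyclins was -0.34, against -0.01 over all genes tested. Of the cyclins, 2 had a higher and 7 had a lower mean in Gas2l3 -/- hearts, where 49.0% and 51.0% of all genes did.

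The order of the levels was read within each group. In Gas2l3 -/- hearts Ccnd3 and Ccnd2 led with overlapping ranges, followed by Ccnd1, Ccna2, Ccnb2 and Ccnb1, whose ranges were apart from each other. In wildtype hearts Ccnd3 led alone, and Ccnd2, Ccna2, Ccnb2 and Ccnd1 followed with each range overlapping the next. In both groups Ccnb1 came sixth, Ccne1 and Ccnf followed it with overlapping ranges, and Ccne2 and Ccna1 were lowest.

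The D type cyclins carry growth signals into G1. Ccnd2, which lies at chr6:127125162-127152193, minus strand (GRCm38, GENCODE), had 151, 117 and 126 FPKM in Gas2l3 -/- libraries, against 73.4, 72.8 and 39.7 FPKM in wildtype libraries. Every Gas2l3 -/- library was above every wildtype library, and wildtype replicate 3 was the lowest. The log2 fold change was 1.12 (SE 0.33), a fold of 2.18, with a limma p of 0.00869 and an adjusted p of 0.966. The exact permutation test over samples gave p = 0.1 (two-sided), the smallest that 3 against 3 allows. Without wildtype replicate 3 the log2 fold change was 0.83. The authors' deposited table gives Ccnd2 a log2 fold change of 0.84 with a standard error of 0.26 and an adjusted p of 0.421.

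Ccnd1 (chr7:144929931-144939925, minus strand), the D type cyclin most often studied as a target of growth factor signalling, had 60.7, 63.8 and 60.4 FPKM in Gas2l3 -/- libraries, against 44.9, 57.1 and 50.1 FPKM in wildtype libraries. The groups did not overlap but came close, at 60.4 FPKM for the lowest Gas2l3 -/- and 57.1 FPKM for the highest wildtype library. The log2 difference of 0.29 had an SE of 0.25 and a limma adjusted p of 0.966. Once the trends on GC content and length within each library were removed, the groups of Ccnd1 overlapped.

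Ccnd3 (chr17:47505051-47599691, plus strand), the D type cyclin with the highest mean in both groups, had 152, 169 and 141 FPKM in Gas2l3 -/- libraries, against 111, 174 and 380 FPKM in wildtype libraries. The groups overlapped, and the wildtype mean of 222 ± 141 FPKM rested on replicate 3. Ccnd3 had a log2 fold change of -0.34 with an SE of 0.45 and a limma adjusted p of 0.966, and of 0.15 without that library. Ccnd3 is the most GC-rich of the 10 cyclins, with 56.7% GC in its transcripts, against 36.3% in Ccne2, the least. With the GC and length trends removed, the groups of Ccnd3 still overlapped. Its log2 fold change was then -0.12 (SE 0.23), with a limma adjusted p of 0.891. Wildtype replicate 3 was still its highest library, at 7.90 on the log2 scale, beside 7.12 and 7.47 in wildtype replicates 1 and 2. The part of the GC trend of wildtype replicate 3 in the level of Ccnd3 was not tested beyond these values.

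As a sum, the 3 D type cyclins came to 364, 350 and 327 FPKM in Gas2l3 -/- libraries, and to 229, 304 and 470 FPKM in wildtype libraries. The sums overlapped. Ccnd2 made up 41.6%, 33.4% and 38.5% of the D type FPKM in Gas2l3 -/- libraries, against 32.1%, 24.0% and 8.45% in wildtype libraries, so its shares did not overlap. The ratio of Ccnd2 to Ccnd1, which no scaling between libraries can change, was 2.49, 1.83 and 2.09 in Gas2l3 -/- libraries and 1.64, 1.27 and 0.793 in wildtype libraries, with no overlap.

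**Figure D2:**
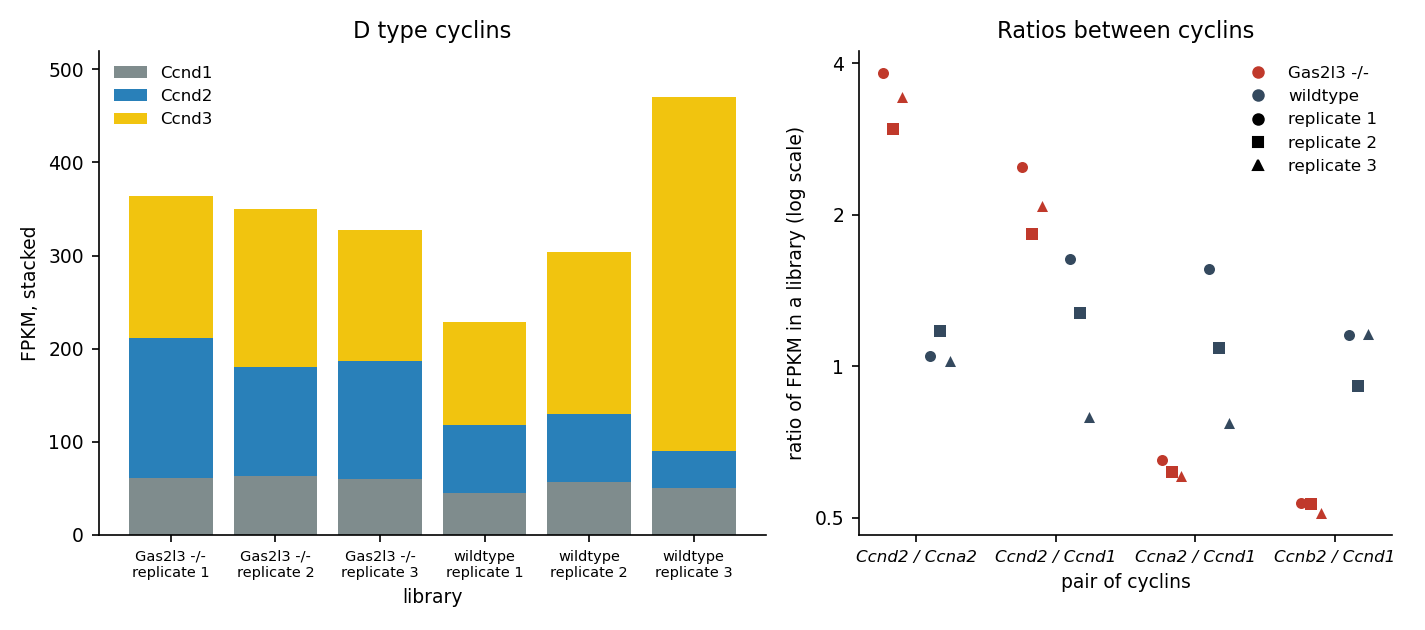
Left, stacked FPKM of Ccnd1, Ccnd2 and Ccnd3 in each library, Gas2l3 -/- before wildtype. Right, ratios of FPKM between pairs of cyclins within each library on a log axis, Gas2l3 -/- (red) left of wildtype (dark blue), with marker shape for the replicate; the ratio of Ccnd2 to Ccna2 is 2.96 to 3.83 in Gas2l3 -/- and 1.03 to 1.17 in wildtype libraries.

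The E type cyclins start DNA replication with Cdk2. Ccne1 (chr7:38097984-38107534, minus strand) had 7.38, 11.8 and 8.09 FPKM in Gas2l3 -/- libraries, against 9.29, 12.2 and 18.3 FPKM in wildtype libraries. The groups overlapped, because Gas2l3 -/- replicate 2 was above wildtype replicate 1. Ccne1 differed by -0.50 on the log2 scale, with an SE of 0.31 and a limma adjusted p of 0.966, and by -0.25 without wildtype replicate 3. Ccne2 (chr4:11191351-11204779, plus strand) was lower in level, with 3.32, 1.62 and 1.21 FPKM in Gas2l3 -/- libraries, against 3.40, 2.33 and 1.07 FPKM in wildtype libraries. The groups overlapped throughout, and both replicate 1 libraries were the highest of their group. Ccne2 rested on 21 to 69 reads per library, and its log2 fold change of -0.11 (SE 0.43) was smaller than its error. It turned to 0.14 without Gas2l3 -/- replicate 3 and to 0.19 without wildtype replicate 1, and was -0.47 without wildtype replicate 3. With the GC and length trends removed it was -0.40 (SE 0.24), with a limma adjusted p of 0.727, and the groups still overlapped.

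Of the A type cyclins, Ccna1 (chr3:55045469-55055501, minus strand) is known from the germ line and was near the limit of detection in these hearts. It had 0.587, 0.470 and 0.458 FPKM in Gas2l3 -/- libraries, against 0.506, 0.499 and 0.104 FPKM in wildtype libraries, from 1 to 6 reads each. It did not pass the filter and was not tested.

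Ccna2 (chr3:36564865-36572150, minus strand), the A type cyclin of somatic cells, had 39.5, 39.4 and 36.6 FPKM in Gas2l3 -/- libraries, against 70.1, 62.0 and 38.7 FPKM in wildtype libraries. Wildtype replicates 1 and 2 were above all Gas2l3 -/- libraries, and wildtype replicate 3 lay within their range. Ccna2 had a log2 fold change of -0.52 with an SE of 0.30 and a limma adjusted p of 0.966, and of -0.77 without wildtype replicate 3. With the GC and length trends removed, the groups of Ccna2 no longer overlapped and its log2 fold change was -0.67 (SE 0.16), with a limma adjusted p of 0.395.

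The B type cyclins and Ccnf belong to G2 and mitosis. Ccnb1 (chr13:100778650-100786570, minus strand), the main partner of Cdk1 at entry into mitosis, had 21.6, 22.1 and 20.8 FPKM in Gas2l3 -/- libraries, against 32.3, 27.0 and 18.7 FPKM in wildtype libraries. As for Ccna2, wildtype replicate 3 was the lowest of its group, here below all 3 Gas2l3 -/- libraries, so the groups overlapped. Ccnb1 had a log2 fold change of -0.24 with an SE of 0.27 and a limma adjusted p of 0.966, and of -0.45 without wildtype replicate 3 and -0.07 without wildtype replicate 1. With the GC and length trends removed its groups did not overlap, at -0.46 with an SE of 0.14 and a limma adjusted p of 0.555.

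Ccnb2 (chr9:70407692-70421547, minus strand), a second partner of Cdk1 that in mammals is found at the Golgi, had 32.5, 34.1 and 30.9 FPKM in Gas2l3 -/- libraries, against 51.9, 52.3 and 58.1 FPKM in wildtype libraries. The groups were well apart, and wildtype replicate 3 was close to the other 2 wildtype libraries. The log2 fold change was -0.73 (SE 0.24), a fold of 0.605, with a limma p of 0.0153 and an adjusted p of 0.966, and the exact permutation test gave p = 0.1. Without 1 library in turn its log2 fold change was between -0.76 and -0.67. The authors' deposited table gives Ccnb2 a log2 fold change of -0.62 with a standard error of 0.23 and an adjusted p of 0.732.

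Ccnf (chr17:24222198-24251484, minus strand), an F-box protein that binds no known cyclin-dependent kinase and brings substrates to a ubiquitin ligase in G2, had 6.10, 7.26 and 7.63 FPKM in Gas2l3 -/- libraries, against 9.23, 9.95 and 13.5 FPKM in wildtype libraries. All 3 Gas2l3 -/- libraries were below all 3 wildtype libraries. The log2 fold change was -0.59 (SE 0.25), with a limma p of 0.0429 and an adjusted p of 0.966, and -0.43 without wildtype replicate 3.

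Counted by separation, Ccnd1 and Ccnd2 were higher and Ccnb2 and Ccnf lower in every Gas2l3 -/- library than in any wildtype library, beside 5.02% and 4.74% of all genes. With the GC and length trends removed, Ccnd2 was higher and Ccna2, Ccnb1, Ccnb2 and Ccnf were lower without overlap, beside 6.46% and 8.37% of all genes. Ccnd2 was higher and Ccna2, Ccnb1, Ccnb2 and Ccnf were lower on average in the primary fit and in all 19 alternatives.

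**Figure D3:**
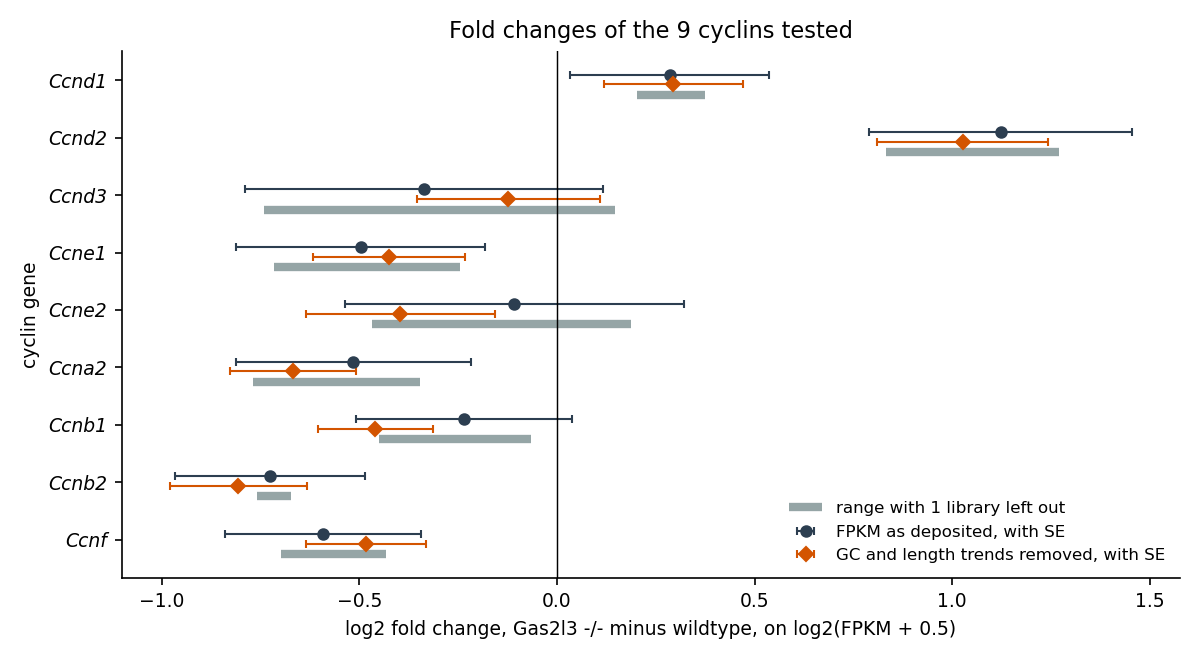
Log2 fold change of the 9 cyclins tested, Gas2l3 -/- minus wildtype, from FPKM as deposited (dark circles) and with GC and length trends removed (orange diamonds), both with the SE, and the range with 1 library left out (grey bar). Ccnd2 lies to the right at 1.12 and Ccnb2 to the left at -0.73, and the grey bars of Ccnd3 and Ccne2 cross 0.

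Ratios between cyclins of different phases set the G1 cyclins against those of G2 and mitosis within each library. Ccnd2 over Ccna2 was 3.83, 2.96 and 3.44 in Gas2l3 -/- libraries, against 1.05, 1.17 and 1.03 in wildtype libraries, where wildtype replicate 3 was no exception. Ccnb2 over Ccnd1 was 0.535, 0.534 and 0.511 in Gas2l3 -/- libraries, against 1.16, 0.915 and 1.16 in wildtype libraries. Both pairs were apart between the groups in all 6 libraries. Within the mitotic cyclins, Ccnb1 over Ccnb2 was 0.664, 0.648 and 0.672 in Gas2l3 -/- libraries, against 0.622, 0.516 and 0.322 in wildtype libraries, again apart. Ccna2 over Ccnb2 overlapped, at 1.21, 1.16 and 1.19 in Gas2l3 -/- libraries and 1.35, 1.19 and 0.667 in wildtype libraries. These pairs were chosen after the values were seen and carry no test.

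Across the 6 libraries, which share the 2 groups and the GC trend, Ccna2 and Ccnb1 varied together (r = 0.95 on log2 FPKM, and 0.99 as deviations from the group means). Ccnb2 and Ccnf did so at r = 0.89 (0.61 as deviations), and Ccnd2 ran against Ccnf at r = -0.99 (-0.96 as deviations). The cyclins of G2 and mitosis did not all vary together. As deviations, Ccna2 ran against Ccnf (r = -0.91) and Ccnb2 (-0.71), and Ccnb1 against Ccnf (-0.88) and Ccnb2 (-0.69). Ccnd2 ran with Ccna2 (0.92) and Ccnb1 (0.88) as deviations, where over the 6 libraries r was -0.30 and -0.02. Ccnd3 followed Ccne1 at r = 0.85 (0.87 as deviations). The genes most like each of 5 cyclins over the 6 libraries were, for Ccnd2, Rcbtb1 (r = 0.992), the tyrosine phosphatase gene Ptpn9 (r = 0.989) and Ccng1 (r = 0.985). For Ccnd1 they were Papss1 (r = 0.988), the nuclease gene Aen (r = 0.988) and Fbxo36 (r = 0.986). For Ccna2 they were the transcription factor gene Hey2 (r = 0.991), Ssbp2 (r = 0.983) and Dbf4, the activator of a replication kinase (r = 0.981). For Ccnb1 they were the centrosome gene Cep70 (r = 0.996), Adhfe1 (r = 0.986) and Dtl, whose protein directs the destruction of replication factors (r = 0.985). For Ccne1 they were Gzmm (r = 0.997), Dpcd (r = 0.991) and the titin cap gene Tcap (r = 0.991). These genes were picked for the highest r among the 12121 genes tested, over only 6 libraries. Values of r this high can arise from such a choice alone, which was not tested. The list does not show shared regulation with the cyclins.

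The promoters of the mitotic cyclins are shown because Ccnb1, Ccnb2 and Ccnf hold the words known from genes of G2 and mitosis, where CCAAT boxes bind NF-Y and the cell cycle homology region (CHR) binds the DREAM and MuvB complexes. RefSeq windows (GRCm38.p6) of 250 bases before to 50 after each gene's start were found for 6 of the 10 cyclins. The letters searched, on both strands, were CCAAT and, for the CHR, TTTGAA and TTTAAA. The 170 bases before the start and the 10 from it on are printed 5′ to 3′ on the gene's strand, with these words in capitals and Ccne1 as an E type cyclin beside them.
Ccnb1, chr13:100786477-100786656, minus strand: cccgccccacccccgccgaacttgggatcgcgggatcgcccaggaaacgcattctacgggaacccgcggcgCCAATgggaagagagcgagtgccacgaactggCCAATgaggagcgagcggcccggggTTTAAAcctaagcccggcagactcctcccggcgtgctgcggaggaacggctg
Ccnb2, chr9:70421545-70421724, minus strand: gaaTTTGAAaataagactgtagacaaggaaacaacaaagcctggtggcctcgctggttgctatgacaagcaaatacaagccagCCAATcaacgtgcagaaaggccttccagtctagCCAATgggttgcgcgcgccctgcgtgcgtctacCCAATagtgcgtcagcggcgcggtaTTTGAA
Ccnf, chr17:24251400-24251579, minus strand: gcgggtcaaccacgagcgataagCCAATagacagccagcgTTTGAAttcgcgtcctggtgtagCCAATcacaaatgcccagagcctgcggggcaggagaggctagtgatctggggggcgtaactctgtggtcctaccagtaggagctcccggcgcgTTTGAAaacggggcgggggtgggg
Ccne1, chr7:38107481-38107660, minus strand: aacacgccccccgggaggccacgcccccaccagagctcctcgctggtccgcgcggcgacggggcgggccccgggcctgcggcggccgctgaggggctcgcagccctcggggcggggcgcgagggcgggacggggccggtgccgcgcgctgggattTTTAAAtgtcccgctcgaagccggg
Ccnb1 had CCAAT 99 and 67 bases before the start and TTTAAA at 42. Ccnb2 had CCAAT at 87, 54 and 21 bases before the start, spaced by the same distance, with TTTGAA at 167 before it and 4 bases after it. Ccnf had CCAAT at 147 and 107 and TTTGAA at 130 and 14. Ccne1 had no CCAAT in its window, and a TTTAAA at 15. Ccnd3 and Ccna1, whose windows are not printed, had CCAAT at 108 and 107 bases before the start. In all, CCAAT occurred in 5 of 7 cyclin windows, beside 37.4% of all windows, so it was not limited to the mitotic cyclins. CCAAT occurred 2 or more times together with TTTGAA or TTTAAA in 3.13% of all 32851 windows, in 46.9% of the 49 windows of the G2 and M genes listed below and in 12.1% of the 33 windows of the S phase genes. Such matches describe letters and do not show that a factor binds there.

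Around the cyclins, the partner kinases had no common direction. Of 5 cyclin-dependent kinases 2 had a higher and 3 a lower mean in Gas2l3 -/- hearts, beside 49.0% and 51.0% of all genes. The median log2 fold change of the kinases was -0.29. Cdk2, the partner of the E and A type cyclins, was the one kinase with separate groups, beside 4.74% of all genes lower in this way. Cdk2 had 27.3 ± 2.37 FPKM in Gas2l3 -/- hearts and 37.8 ± 2.99 FPKM in wildtype hearts (SD, n = 3 each). Its log2 fold change was -0.46 (SE 0.24). Cdk1 had 42.1 ± 11.3 FPKM in Gas2l3 -/- hearts and 50.8 ± 6.48 FPKM in wildtype hearts, and Cdk4 had 185 ± 26.6 FPKM in Gas2l3 -/- hearts and 293 ± 163 FPKM in wildtype hearts, both with overlapping groups. For Cdk4 wildtype replicate 3 was the highest library, at 475 FPKM, beside 161 and 244 FPKM in wildtype replicates 1 and 2. Cdk6 (log2 fold change 0.27, SE 0.41) and Cdk7 (0.54, SE 0.39) had higher means. The median of the kinases was -0.48 without Gas2l3 -/- replicate 2, -0.09 without Gas2l3 -/- replicate 1 and -0.11 without wildtype replicate 3. Of the pocket proteins that the G1 kinases phosphorylate, Rb1 (0.15), Rbl1 (-0.20) and Rbl2 (-0.11) had log2 fold changes near 0, with a median of -0.11 that was -0.29 to 0.12 with 1 library left out.

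The 9 genes that switch cyclin-dependent kinases on and off all had lower means in Gas2l3 -/- hearts, beside 51.0% of all genes, and 4 had separate groups, beside 4.74% of all genes lower in this way. The median log2 fold change was -0.40. Plk1, a mitotic kinase that activates the Cdk1 phosphatases, had 17.6 ± 1.37 FPKM in Gas2l3 -/- hearts and 34.3 ± 15.3 FPKM in wildtype hearts (SD, n = 3 each). Cdc25b, such a phosphatase, had 11.9 ± 1.02 FPKM in Gas2l3 -/- hearts and 18.6 ± 3.43 FPKM in wildtype hearts. For Plk1 wildtype replicate 3 was the highest library, at 51.4 FPKM, beside 21.9 and 29.5 FPKM in wildtype replicates 1 and 2. Wee1, the inhibitory kinase, had a log2 fold change of -0.40 (SE 0.23) and Cdc25c one of -0.48 (SE 0.29). Of these 9 genes limma called 0, and 2 were lower at an unadjusted p under 0.05, beside 1.35% of all genes. Cdc25c, Cks1b and Cks2 are counted again among the G2 and M genes below, so the lists are not separate observations.

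Of 14 genes that destroy cyclins, 4 had higher and 10 lower means, beside 49.0% and 51.0% of all genes. Their median was -0.19, with 0 called. The median was -0.01 without wildtype replicate 1 and -0.09 without Gas2l3 -/- replicate 2. Cdc20, which directs the anaphase-promoting complex to the B type cyclins, had 33.6 ± 1.65 FPKM in Gas2l3 -/- hearts and 69.2 ± 25.0 FPKM in wildtype hearts, and the ubiquitin-conjugating enzyme gene Ube2c had 119 ± 12.2 FPKM in Gas2l3 -/- hearts and 220.0 ± 88.8 FPKM in wildtype hearts (SD, n = 3 each). Wildtype replicate 3 was the highest library for both, at 98.1 FPKM for Cdc20 and 319 FPKM for Ube2c. Wildtype replicates 1 and 2 had 53.9 and 55.7 FPKM for Cdc20 and 149 and 192 FPKM for Ube2c. Cdc20 and Ube2c were the only 2 of these 14 genes with separate groups, beside 4.74% of all genes lower in this way. Both are counted again among the G2 and M genes below. Ube2s (-0.85, SE 0.48) and Fbxo31 (-0.51, SE 0.35) also had lower means. Of the cyclins outside the core cycle, 11 of 14 tested had higher means, beside 49.0% of all genes, with a median log2 fold change of 0.29. Ccng1, an atypical cyclin known as a p53 target, had 161 ± 38.9 FPKM in Gas2l3 -/- hearts and 68.1 ± 28.6 FPKM in wildtype hearts without overlap (a log2 difference of 1.31, SE 0.41, limma adjusted p 0.966). Wildtype replicate 3 was the lowest library for Ccng1, at 35.3 FPKM, beside 87.6 and 81.4 FPKM in wildtype replicates 1 and 2. Ccnk, which serves transcription, was lower without overlap (-0.40, SE 0.24). Among all genes 5.02% were higher and 4.74% lower without overlap. Ccnl2 (0.68, SE 0.46) and Ccnyl1 (0.46, SE 0.38) overlapped. The median of these 14 was -0.06 without wildtype replicate 3 and 0.62 without wildtype replicate 1. It was 0.05 with the GC and length trends removed, 0.04 and 0.09 under the default and the gene by gene library weights, and 0.45 at a common FPKM total.

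Genes of the phases gave the wider setting. Of 40 S phase genes tested, 31 had lower means in Gas2l3 -/- hearts (51.0% of all genes did) and 12 had separate groups in that direction (4.74% of all genes), with a median log2 fold change of -0.27. Rrm2, a subunit of ribonucleotide reductase, had 46.1 ± 1.10 FPKM in Gas2l3 -/- hearts and 83.9 ± 9.79 FPKM in wildtype hearts. E2f8, Ung and Chaf1b had log2 fold changes of -0.76, -0.96 and -0.80. Of 49 G2 and M genes, Gas2l3 among them, 47 had lower means and 21 had separate groups, beside the same 51.0% and 4.74% of all genes, with a median of -0.58, against -0.01 over all genes tested. Without wildtype replicate 1 these medians were -0.11 and -0.36, and without wildtype replicate 3 that of the S phase genes was -0.41. Aurka, the mitotic spindle kinase, had 18.0 ± 0.995 FPKM in Gas2l3 -/- hearts and 33.2 ± 3.63 FPKM in wildtype hearts. Cdca3, Birc5 and Cenpf had log2 fold changes of -1.10, -0.83 and -0.89. limma called 0 genes of either list, with 5 S phase and 18 G2 and M genes at an unadjusted p under 0.05, all lower, beside 1.35% of all genes lower.

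**Figure D4:**
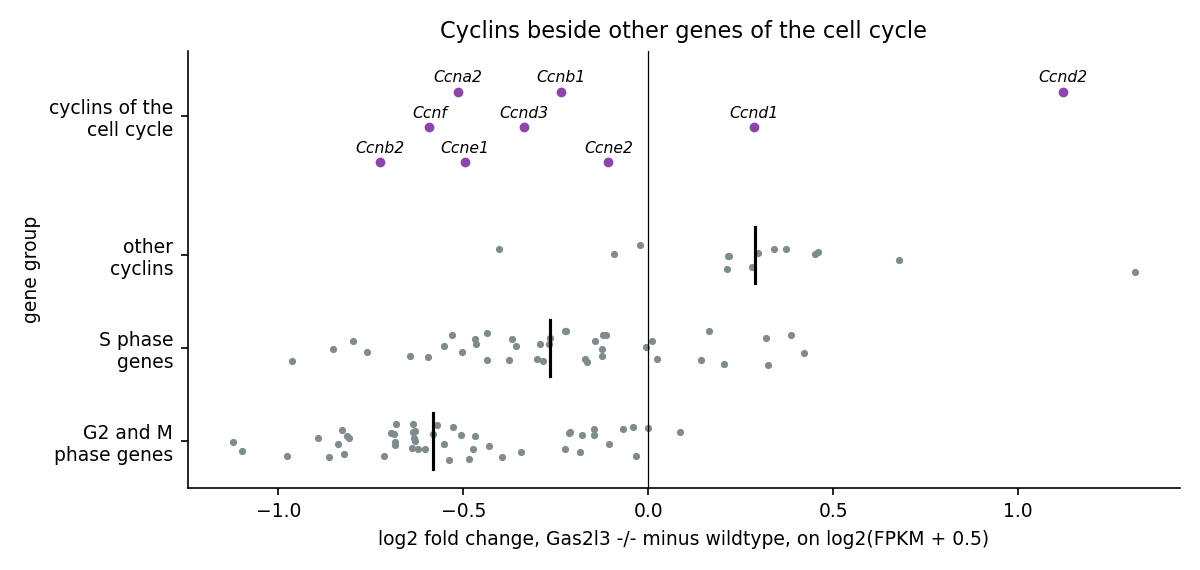
Log2 fold changes, Gas2l3 -/- minus wildtype, of the 9 cyclins tested (purple, named), of 14 other cyclins, 40 S phase genes and 49 G2 and M genes (grey points), with a black line at each list's median. The medians lie at 0.29, -0.27 and -0.58, and Ccnb2 and Ccnf lie near the median of the G2 and M genes.

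Markers of other cell types of the heart had summed levels that overlapped between the groups. Fibroblast markers summed to 782 to 943 FPKM in Gas2l3 -/- libraries and 584 to 1194 FPKM in wildtype libraries, with 4 of 6 higher. Endothelial markers, 4 of 6 higher, summed to 326 to 383 FPKM in Gas2l3 -/- libraries and 202 to 427 FPKM in wildtype libraries, and smooth muscle markers, 3 of 6 higher, to 388 to 677 FPKM in Gas2l3 -/- libraries and 422 to 768 FPKM in wildtype libraries. None of the 3 lists separated the groups by its sum. Single markers did: Emcn, an endothelial sialomucin gene, had 110.8 ± 31.6 FPKM in Gas2l3 -/- hearts and 51.3 ± 7.49 FPKM in wildtype hearts, and the macrophage lysozyme gene Lyz2 had 46.7 ± 22.2 FPKM in Gas2l3 -/- hearts and 17.1 ± 7.40 FPKM in wildtype hearts (SD, n = 3 each; both limma adjusted p = 0.966). Adgre1, a macrophage receptor gene, also had separate groups, at 2.13 ± 0.482 FPKM in Gas2l3 -/- hearts and 1.35 ± 0.258 FPKM in wildtype hearts. The fibroblast gene Tcf21 was likewise apart, at 71.8 ± 17.2 FPKM in Gas2l3 -/- hearts and 47.0 ± 18.7 FPKM in wildtype hearts. Its groups came close, at 60.2 FPKM for the lowest Gas2l3 -/- and 59.2 FPKM for the highest wildtype library. Ckm, the muscle creatine kinase gene, was lower without overlap, at 1247 ± 54.4 FPKM in Gas2l3 -/- hearts and 2132 ± 1209 FPKM in wildtype hearts. The highest Gas2l3 -/- library had 1286 FPKM, close to the lowest wildtype library at 1304 FPKM. The wildtype mean rested on replicate 3 at 3519 FPKM, beside 1304 and 1574 FPKM in wildtype replicates 1 and 2. These 5 markers were named after their values were seen. Of all genes, 5.02% were higher and 4.74% lower without overlap. In the same lists the endothelial genes Kdr (log2 fold change -0.26) and Cdh5 (-0.01) had lower means in Gas2l3 -/- hearts. So did the macrophage genes C1qa (-0.16) and C1qb (-0.08) and the fibroblast genes Col1a1 (-0.29) and Col1a2 (-0.06), all with overlapping groups. Macrophage markers, 5 of 7 higher, summed to 82.4 to 132 FPKM in Gas2l3 -/- libraries and 53.6 to 111 FPKM in wildtype libraries, and erythroid markers, all 3 tested higher, to 29.7 to 123 FPKM in Gas2l3 -/- libraries and 28.5 to 49.7 FPKM in wildtype libraries. The skeletal muscle list, with Myod1 and Pax7 at 0, summed to 1251 to 1350 FPKM in Gas2l3 -/- libraries and 1326 to 3592 FPKM in wildtype libraries. Markers of lung, liver and thymus summed to at most 9.83 FPKM in Gas2l3 -/- libraries and 10.04 FPKM in wildtype libraries. Of the cardiomyocyte markers 6 of 7 had lower means in Gas2l3 -/- hearts, and 0 of 7 had separate groups. The cardiomyocyte markers were apart only as a sum, at up to 19475 FPKM in Gas2l3 -/- libraries and from 20369 FPKM in wildtype libraries. Most of this sum came from Actc1 and Tnnt2, each with overlapping groups. Actc1 had 9589 ± 604 FPKM in Gas2l3 -/- hearts and 12953 ± 3641 FPKM in wildtype hearts, with 16886 FPKM in wildtype replicate 3. Tnnt2 had 6698 ± 840 and 6795 ± 1498 FPKM in the same order. The part of the cardiomyocyte markers in the cyclin differences was not tested.

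Ccna2, Ccnd1, Ccnd2, Ccnd3, Ccne2 and Ccna1 share exon bases with genes on the opposite strand, from 185 bases of Ccna1 to 1100 of 4709 bases of Ccnd1, and Ccnb1, Ccnb2 and Ccnd3 have processed pseudogenes in GENCODE. Since the use of strand in counting is not given in the sources used here, reads of these pairs may have been shared or split.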

How the data were processed

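Per the labels' protocols, heart RNA was treated with DNase and selected for poly(A), and the NEBNext Ultra libraries had 13 cycles of PCR. FastQC, DESeq2 and mm10 are named, without versions, in the submitters' processing notes. Which aligner, counter and annotation were used is not given in the sources used here. The authors deposited FPKM per gene and library, and a second table with log2 fold changes, standard errors and p-values of their comparison. Size factors, not library totals, scale the deposited FPKM, as the values themselves show, and whole reads came back for 94235 of 94235 values above 0 (100%, tolerance 0.01). Reads carry no molecular identifiers, so copies made in PCR cannot be told from separate molecules, and read numbers can understate counting error.

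Groups were compared in limma 3.58.1 under R 4.3.3, by lmFit with group as the factor and a trended eBayes, on log2(FPKM + 0.5), two-sided, for genes with 1 FPKM or more in at least 3 libraries, with Benjamini-Hochberg adjustment over all 12121 genes. Such fold changes understate those of low genes. The 19 alternatives covered the pseudocount, filters, scaling, each library left out, library weights, voom on the recovered reads, the replicate block, and loess trends on GC content and length removed (span 0.3). Same-numbered libraries deviated together (correlations over genes of 0.47, 0.44 and 0.19, the last being weak). The numbers were read as pairing the samples in the replicate block only, from the data and not from the labels. The primary fit, the permutation test and the counts of separate groups left the pairing out. Coordinates are from GENCODE M21 (GRCm38, equal to mm10).

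The members and gene lists (cyclin-dependent kinases, their phosphatases and kinases, pocket proteins, cyclin degradation, other cyclins, S phase, G2 and M, and cell type markers) were chosen with earlier results of these data known. Named genes were the 10 cyclins, Gas2l3, the 4 genes of smallest p in each list (every kinase and pocket protein), and the 3 genes most correlated with each of 5 cyclins.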

Additional observations from a re-analysis of the deposited data

How the results depend on the processing

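With 3 libraries per group and 1 wildtype library of a different GC trend, no cyclin passed the adjusted threshold, except under limma's default library weights. Those did not converge (weight 18.1 on wildtype replicate 2 and 0.0979 on wildtype replicate 3) and called 2485 genes higher and 2553 lower, with log2 fold changes of 0.82 for Ccnd2, -0.53 for Ccne1, -0.72 for Ccna2, -0.35 for Ccnb1, -0.73 for Ccnb2 and -0.42 for Ccnf, all past the threshold. A gene by gene method for the weights, added after seeing the data, called 1 gene higher, Mir6981, and 1 lower, Ppp1r1b, and removing the GC and length trends without the replicate block called 1 lower, again Ppp1r1b. These were named after their values were seen.

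Directions turned for Ccnd3 without wildtype replicate 3 (0.15), for Ccne2 at a common FPKM total (0.0046), without Gas2l3 -/- replicate 3 (0.14) and without wildtype replicate 1 (0.19), and for Gas2l3 without wildtype replicate 1 (0.047). Leaving out each library gave -0.74 to 0.15 for Ccnd3, -0.47 to 0.19 for Ccne2 and -0.88 to 0.047 for Gas2l3. A common FPKM total moved the median of all genes to 0.15; there the list medians were -0.12 for the kinases, -0.22 for their phosphatases and kinases and -0.028 for cyclin degradation. With 1 library left out these 3 medians were -0.48 to -0.094, -0.48 to -0.34 and -0.23 to -0.0072, and that of the G2 and M genes -0.69 to -0.36. Default weights gave -0.31 for the phosphatases and kinases, -0.37 for cyclin degradation and -0.39 for G2 and M genes. Cyclin degradation also moved to -0.26 with a mean of 5 FPKM or more, -0.24 with quantile normalization, -0.27 with gene by gene weights and -0.25 with the GC and length trends removed, with or without the block. The cause of these moves was not tested. The mean filter of 5 FPKM left Ccne2 out.

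With the replicate block, which pairs libraries by number, the log2 fold changes were 1.12 for Ccnd2 (limma adjusted p = 0.692), -0.73 for Ccnb2 and -0.59 for Ccnf (both 0.782), 0 genes were called, and it changed no other call.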
